A study of Mus musculus with 2 samples.

Results

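The data describe 9 genes of the contacts between endothelial cells (Cdh5, Pecam1, Cldn5, Esam, F11r, Tjp1, Ocln, Ptprm and Magi1), taken by symbol from the 32285 genes of the count tables, in lymphatic endothelial (LEC) and blood endothelial (BEC) cells of mouse skin tumors. All groups carried B16F10-OVALBUMIN/VEGFC tumors, grown from a mouse melanoma line engineered to make ovalbumin (a model antigen) and VEGF-C, which drives lymphatic vessel growth. In each of 2 genotypes, Cre plus (Ifngr1iProx1) and Cre minus (Ifngr1WT), 500K tumor cells were placed in the skin, and on day 15 the cells of 3 pooled tumors were sorted as CD31-positive and CD45-negative, with dead cells removed by DAPI. The genotype name ties the change in Ifngr1, which encodes the chain of the interferon-γ receptor that binds the cytokine, to Prox1, the transcription factor of lymphatic identity. The sources used here give neither the age of the mice nor how the Cre was switched on. With 1 single-cell 3′ library per pool, genotype, pool and library cannot be told apart, no test was made, and the 95% intervals in square brackets cover counting error only.

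Endothelial cells are held together by adherens junctions, tight junctions and other contact receptors. Cdh5 (VE-cadherin) is the cadherin of the adherens junction and Pecam1 (CD31) is a contact receptor of the same borders, while Cldn5, Ocln (occludin), F11r (JAM-A) and Esam sit in or near tight junctions. Tjp1 (ZO-1) and Magi1 are scaffolds inside the membrane, and Ptprm is a receptor phosphatase that binds itself across the contact. In lymphatic capillaries the junctions are spaced like buttons, with flaps through which fluid and cells enter, whereas blood vessels and collecting lymphatics have continuous seams.

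Genomic positions of the members differ widely in size and are given on mm10 with GENCODE M21. The smallest member is Cldn5 (ENSMUSG00000041378), a single exon of 1416 bases at chromosome 16, 18776847 to 18778262, plus strand. Ptprm (ENSMUSG00000033278) spans 687.5 kb on chromosome 17, of which 1.28% is exon, and Magi1 (ENSMUSG00000045095) spans 608.5 kb on chromosome 6, of which 1.74% is exon. The other spans are 10.24 kb for Esam, 27.07 kb for F11r, 42.89 kb for Cdh5, 56.21 kb for Ocln, 96.41 kb for Pecam1 and 231.6 kb for Tjp1. Cdh5 has 1 gene annotated on its opposite strand, Gm29682, and Ptprm has 1700016K05Rik, Gm47471 and Gm9984.

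RefSeq promoter windows on GRCm38.p6, from 250 bases before to 50 after the start, were matched by symbol for 6 members in 8 entries. Those shown are of Cldn5, which stood apart between the libraries, of F11r, which held more CCAAT boxes than the other members' windows, and of the first of the Ocln entries, whose gene was nearly silent. Capitals mark CCAAT on either strand (CCAAT or ATTGG), and sequences run 5′ to 3′ on the gene's strand.
Cldn5, chr16:18776597-18776896, plus strand: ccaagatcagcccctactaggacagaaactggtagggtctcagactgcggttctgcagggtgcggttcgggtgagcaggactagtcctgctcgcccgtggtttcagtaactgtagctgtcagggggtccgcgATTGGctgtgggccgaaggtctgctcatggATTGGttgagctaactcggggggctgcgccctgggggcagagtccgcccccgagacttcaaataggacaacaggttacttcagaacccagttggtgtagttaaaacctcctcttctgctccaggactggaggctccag
F11r, chr1:171437311-171437610, plus strand: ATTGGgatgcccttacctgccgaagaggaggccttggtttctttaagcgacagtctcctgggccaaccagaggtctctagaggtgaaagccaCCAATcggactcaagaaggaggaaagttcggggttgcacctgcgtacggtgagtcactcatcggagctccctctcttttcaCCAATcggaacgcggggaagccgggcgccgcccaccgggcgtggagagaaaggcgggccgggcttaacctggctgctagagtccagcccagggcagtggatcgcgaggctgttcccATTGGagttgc
Ocln, chr13:100552669-100552968, minus strand: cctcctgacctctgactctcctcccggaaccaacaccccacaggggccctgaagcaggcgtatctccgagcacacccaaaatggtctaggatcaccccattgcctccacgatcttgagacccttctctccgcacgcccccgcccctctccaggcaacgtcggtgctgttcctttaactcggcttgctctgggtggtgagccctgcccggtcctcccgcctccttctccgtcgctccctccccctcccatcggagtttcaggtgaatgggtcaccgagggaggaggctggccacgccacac
The Cldn5 window held 2 CCAAT matches and the F11r window 4, while the Ocln window shown held 0 and the other Ocln window 1. CCAAT is found in 37.4% of 32851 mouse promoter windows of this length, 11.7% hold 2 or more and 1.06% hold 4 or more. GGAA, the core that ETS factors bind, was searched on both strands too and was absent from the Cldn5 window, though 96.0% of all windows hold it. These matches are descriptions of letters and not binding sites.

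Barcodes were gated by 3 lymphatic genes (Lyve1, Mmrn1, Ccl21a) against 3 blood endothelial genes (Flt1, Plvap, Emcn), and a barcode was kept only if its score also stood above those of pigment, macrophage and mural or fibroblast genes. Of 2491 barcodes in Cre plus, 750 were LEC and 182 BEC, and of 2502 in Cre minus, 205 were LEC and 206 BEC. Among markers the gate did not use, Prox1 stood at 573 and 421 CPM (UMIs per 1000000 of the class total) in LEC of Cre plus and Cre minus and at 3.63 CPM and 0 UMIs in BEC, and Esm1, a blood endothelial tip cell gene, stood at 1376 and 1307 CPM in BEC and at 3.54 and 1.56 CPM in LEC. Other check markers were shared: Kdr (VEGFR2) stood at 350 and 282 CPM and Cd34 at 109 and 66.1 CPM in LEC, and the 6 blood endothelial check genes summed to 464 and 351 CPM in LEC against 3596 and 3766 CPM in BEC. Of the lymphatic check genes, Nrp2 stood at 321 and 361 CPM and Flt4 at 161 and 187 CPM in BEC. The 5 lymphatic check genes summed to 492 and 548 CPM in BEC against 3090.9 and 2671.5 CPM in LEC. The median depth of a LEC barcode was 16230 and 5773 UMIs in the Cre plus and Cre minus libraries, and that of a BEC barcode 16422 and 10976. A barcode in which Malat1, a nuclear RNA, made up 0.1% or more of the UMIs is called Malat1-rich. Of LEC barcodes 57.9% in Cre plus were Malat1-rich, against 19.0% in Cre minus, and of BEC barcodes 77.5% and 65.0%. The targeted gene Ifngr1 stood at 30.0 CPM (500 UMIs) in LEC of Cre plus and 47.9 CPM (92 UMIs) in LEC of Cre minus, a log2 ratio of −0.67 [−1.0, −0.34], and at 180 and 158 CPM in BEC. The 2 libraries shared 1 barcode sequence.

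**Figure D1:**
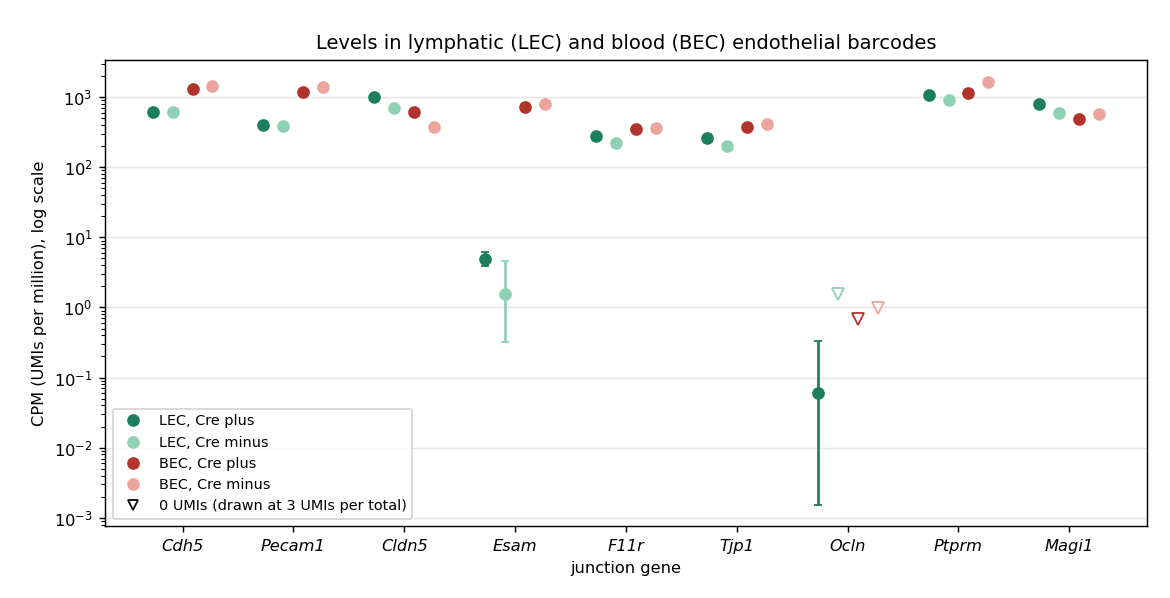
CPM (log scale) of the 9 junction genes in LEC and BEC barcodes of each library, with 95% Poisson intervals, where open triangles mark 0 UMIs and are drawn at the level of 3 UMIs. Esam falls from 722 and 797 CPM in BEC to under 5 CPM in LEC, and Ocln has 1 UMI in all 4 groups.

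In summed UMIs across the endothelial classes, Esam, Pecam1, Cdh5, F11r and Tjp1 were higher in BEC, and Cldn5 was higher in LEC. Ptprm and Magi1 varied with library or Malat1 content, and Ocln was nearly silent. Levels are UMIs of transcript ends and are not per length, so each member is compared with itself across classes and not with the others. The gate was drawn on the same barcodes, so these levels are a description. Of the 8 members with at least 50 UMIs, 3 (Esam, Pecam1 and Cdh5) were over 1.5-fold lower in LEC than in BEC and 2 (Cldn5 and Magi1) over 1.5-fold higher in Cre plus, where 13.7% and 21.2% of 11698 genes were. In Cre minus 6 were lower (F11r, Tjp1 and Ptprm with those 3) and 1 higher (Cldn5), where 28.2% and 14.3% of 8661 genes were. The median log2 ratio of LEC over BEC was −0.45 for the members and 0.13 for all genes in Cre plus, and −0.94 and −0.19 in Cre minus.

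The most uneven member was Esam, an immunoglobulin-family adhesion molecule of endothelial tight junctions and platelets. It stood at 722 CPM (3186 UMIs) and 797 CPM (2458 UMIs) in BEC of Cre plus and Cre minus, and at 4.92 CPM (82 UMIs) and 1.56 CPM (3 UMIs) in LEC. BEC were thus 147-fold [118, 185] higher than LEC in Cre plus and 511-fold [175, 2479] higher in Cre minus, where the second value rests on 3 UMIs. With every barcode thinned to 2000 UMIs, an Esam UMI was found in 63.7% [56.1, 70.9] of 171 and 63.0% [55.9, 69.7] of 200 BEC barcodes. The same share was 0.565% [0.154, 1.44] of 708 and 1.02% [0.123, 3.62] of 197 LEC barcodes, against 0% of 510 and 0.463% of 864 pigment barcodes, which should lack the gene. At 2000 UMIs, detection in LEC was near that of the pigment barcodes, but it rested on 4 and 2 LEC barcodes. Without thinning, Esam was found in 6.13% [4.5, 8.1] of LEC and 2.44% [1.3, 4.1] of pigment barcodes of Cre plus. Median depths there were 16230 and 17676 UMIs, and the gene had 82 and 13 UMIs. In Cre minus the shares were 1.46% [0.30, 4.2] and 4.16% [2.9, 5.7], at median depths of 5773 and 17868 UMIs. Of the 82 Esam UMIs in LEC of Cre plus, 30 lay in 5 barcodes. LEC barcodes that also had a UMI of Flt1, Plvap or Emcn held Esam at 5.21 CPM (599 barcodes), and the other 151 held 1 Esam UMI, 0.890 CPM. The part of mixed barcodes or free RNA in these UMIs was not tested.

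Cdh5 and Pecam1 were present in both classes and higher in BEC. Cdh5 stood at 1296 and 1444 CPM in BEC of Cre plus and Cre minus and at 621 and 618 CPM in LEC. That is 2.09-fold [2.02, 2.15] higher in BEC in Cre plus and 2.34-fold [2.19, 2.49] in Cre minus. Pecam1, which encodes the CD31 used for the sort, stood at 1199 and 1396 CPM in BEC and at 398 and 391 CPM in LEC. BEC were 3.01-fold [2.90, 3.12] and 3.57-fold [3.30, 3.87] higher for Pecam1. At 2000 UMIs per barcode, Pecam1 was found in 83.6% and 82.5% of BEC barcodes and in 53.1% and 44.2% of LEC barcodes. The intervals of the classes did not overlap for either gene in either library. Among Malat1-poor barcodes of Cre minus alone, Cdh5 did not differ between the classes by more than its interval, with a log2 ratio of LEC over BEC of 0.057 [−0.19, 0.30].

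Cldn5, the main claudin of endothelial tight junctions, ran the other way in summed UMIs. It stood at 992 CPM (16530 UMIs) and 711 CPM (1366 UMIs) in LEC of Cre plus and Cre minus and at 613 CPM (2703 UMIs) and 371 CPM (1143 UMIs) in BEC. LEC were 1.62-fold [1.55, 1.69] and 1.92-fold [1.77, 2.08] higher. Within BEC the gene was uneven, since the 10% of barcodes with the most Cldn5 UMIs held 58.5% of them in Cre plus and 61.6% in Cre minus, against 36.0% and 40.7% for Cdh5. In LEC that share was 33.2% for Cldn5 and 32.6% for Cdh5 in Cre plus, and 72.3% and 53.8% in Cre minus. Cldn5 was thus more concentrated than Cdh5 in 3 of the 4 groups and alike in LEC of Cre plus. The median barcode held 7.24 Cldn5 UMIs per 10000 in LEC of Cre plus, 1.35 in LEC of Cre minus, and 2.14 and 1.45 in BEC.

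F11r and Tjp1 were moderately lower in LEC in summed UMIs. F11r stood at 276 and 220 CPM in LEC and at 355 and 361 CPM in BEC of Cre plus and Cre minus. Tjp1 stood at 259 and 203 CPM in LEC and at 374 and 408 CPM in BEC. BEC were 1.28-fold and 1.65-fold higher for F11r, and 1.44-fold and 2.01-fold higher for Tjp1. Malat1-poor barcodes of Cre minus turned F11r to a log2 ratio of LEC over BEC of 0.28 [−0.21, 0.79], an interval that spans 0. Among Malat1-rich barcodes of Cre minus 3 of 8 members were over 1.5-fold lower in LEC, where 14.6% of genes were, and among Malat1-poor ones 3 of 7, where 21.8% were.

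Ptprm and Magi1, the members with the longest spans, did not keep 1 order between the classes. Ptprm stood at 1074 and 897 CPM in LEC of Cre plus and Cre minus and at 1130 and 1652 CPM in BEC. Its log2 ratio of LEC over BEC was −0.072 [−0.12, −0.027] in Cre plus and −0.88 [−0.96, −0.80] in Cre minus, but 0.068 and 0.036 among Malat1-rich barcodes. Magi1 stood at 795 and 598 CPM in LEC and at 488 and 576 CPM in BEC. The Magi1 log2 ratio was 0.70 [0.64, 0.77] for Cre plus, 0.054 [−0.054, 0.16] for Cre minus, and 0.85 and 0.97 among Malat1-rich barcodes. Within Malat1-rich barcodes, then, Ptprm was near equal in the classes and Magi1 higher in LEC in both libraries. Malat1-poor barcodes gave no such order, with Ptprm at 0.67 [0.035, 1.38] for Cre plus but −1.12 [−1.72, −0.53] for Cre minus, and Magi1 at 2.69 (3 UMIs in BEC) and −0.22 [−1.14, 0.76].

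Ocln, a tetraspan protein of tight junctions, was next to undetected. It had 1 UMI in the 750 LEC barcodes of Cre plus and 0 in LEC of Cre minus and in BEC of both libraries. A count of 0 allows up to 1.56 CPM in LEC of Cre minus and up to 0.680 and 0.973 CPM in BEC of Cre plus and Cre minus. Elsewhere it had 4 UMIs in pigment barcodes and 1 in mural barcodes of Cre plus, and 4 UMIs in 1 macrophage barcode of Cre minus. Of the 5 epithelial markers, Epcam, Cdh1, Krt5 and Krt8 were at 0 UMIs in all 4 endothelial groups, and Krt14 had 1 UMI in BEC of each library and 0 in LEC.

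**Figure D2:**
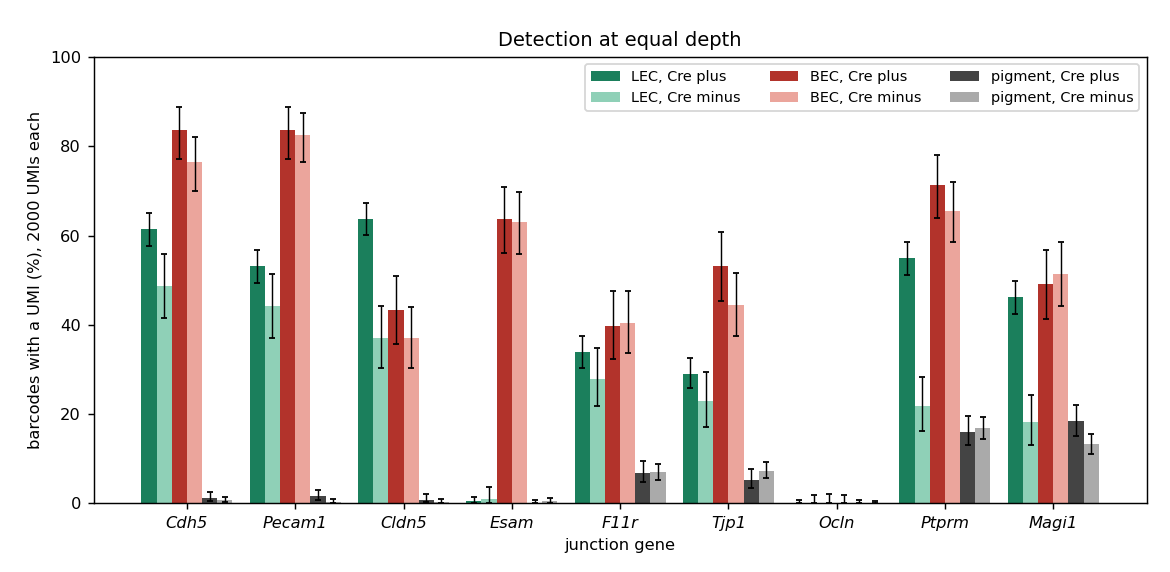
Share of barcodes (%) with a UMI of each gene after each barcode was thinned to 2000 UMIs, for LEC, BEC and pigment barcodes of each library, with exact Clopper-Pearson 95% intervals. Esam is found in 63.7% and 63.0% of BEC barcodes and close to the pigment level in LEC, and Cldn5 in 63.7% of Cre plus LEC against 37.1% of Cre minus LEC.

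Between the genotypes, the lymphatic members stood level or slightly higher in Cre plus, as genes in general did. Of the 8 members with at least 50 UMIs in LEC, 1 was over 1.5-fold higher in Cre plus (Esam, 82 against 3 UMIs) and 0 were lower, where 22.7% of 11287 genes were higher and 2.78% lower. The median log2 ratio was 0.34 for the members and 0.27 for all genes. Cdh5, at 621 and 618 CPM, had a log2 ratio of 0.007 [−0.080, 0.095], and Pecam1 at 0.027 [−0.082, 0.14], so that neither differed beyond counting error. The log2 ratio was 0.48 [0.40, 0.56] for Cldn5, 0.41 [0.32, 0.50] for Magi1, 0.35 [0.20, 0.50] for Tjp1, 0.33 [0.19, 0.48] for F11r and 0.26 [0.19, 0.33] for Ptprm. All these lay within 1.5-fold in summed UMIs. With each barcode weighted equally, Magi1, Cldn5, Ptprm and F11r passed it, at 1.02, 1.0, 0.76 and 0.66, as did 44.5% of all genes under that weighting. For Esam the ratio was 1.66 [0.058, 3.96]. Relative to the median of all genes, Cdh5, Pecam1 and Ptprm fell below 0, at −0.26, −0.24 and −0.009, and Cldn5 and Magi1 stayed above it at 0.21 and 0.14.

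The lymphatic ratios changed sign among Malat1-rich barcodes and not, as a group, among Malat1-poor ones. Among Malat1-rich LEC barcodes (434 from Cre plus, 39 from Cre minus) 7 of 8 members stood lower in Cre plus, with a median log2 ratio of −0.27 against −0.087 for all genes. Cdh5 was then at 655 and 878 CPM, a log2 ratio of −0.42 [−0.53, −0.31]. Ptprm was at 1250 and 2001 CPM, a ratio of −0.68 [−0.75, −0.61], and was the only member over 1.5-fold lower, where 15.6% of 11111 genes were. Esam had 75 UMIs against 0 and was the 1 member higher, where 11.3% of genes were. Cldn5 was at 1082 and 1207 CPM, a ratio of −0.16 [−0.25, −0.064]. Among Malat1-poor LEC barcodes, 316 and 166, Cldn5 was at 506 and 328 CPM, a ratio of 0.63 [0.46, 0.80]. There Ptprm and Magi1 reached 1.54 [1.11, 2.0] and 1.49 [0.94, 2.10], and with Cldn5 they were the 3 of 7 members over 1.5-fold higher, where 18.8% of 5956 genes were.

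**Figure D3:**
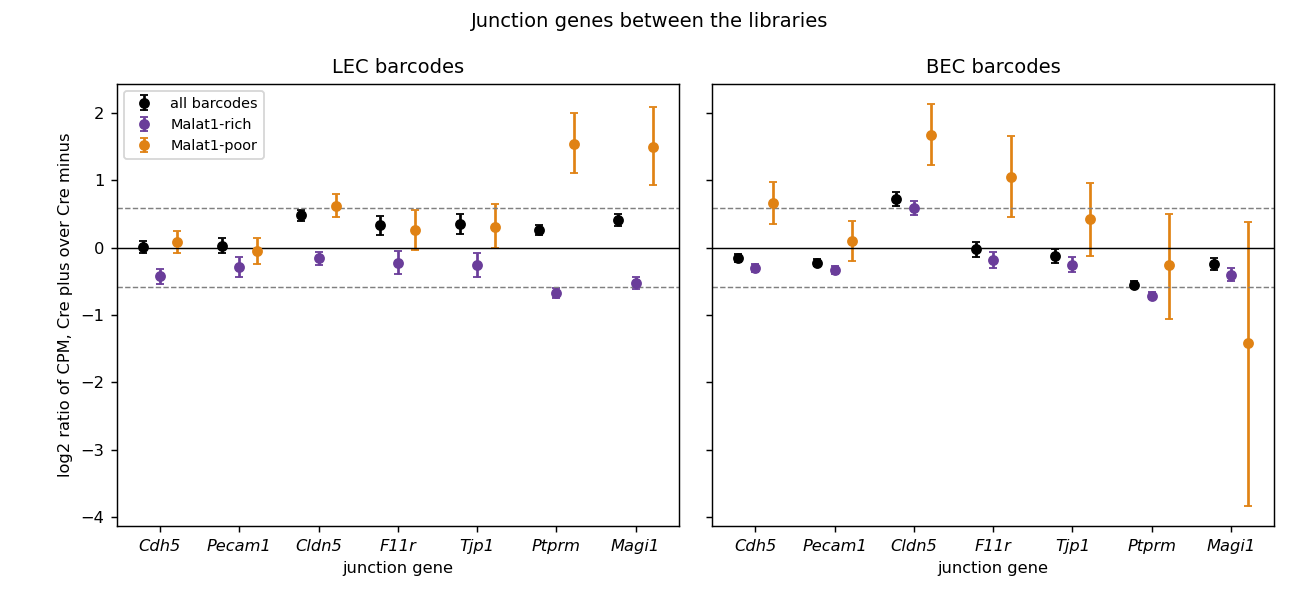
Log2 ratio of CPM, Cre plus over Cre minus, for 7 junction genes in LEC (left) and BEC (right), over all barcodes, Malat1-rich and Malat1-poor barcodes, with 95% counting intervals. Dashed lines mark 1.5-fold, and Esam and Ocln are not drawn, having 3 or fewer UMIs in LEC of Cre minus. Cldn5 in BEC lies above 0 in all 3 sets (0.72, 0.58 and 1.68), whereas in LEC it lies above 0 in 2 sets and at −0.16 among Malat1-rich barcodes.

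In blood endothelial barcodes Cldn5 was the 1 member past 1.5-fold. The gene, at 613 CPM in Cre plus against 371 CPM in Cre minus, was 1.65-fold [1.54, 1.77] higher, where 6.89% of 9554 genes were over 1.5-fold higher and 5.52% lower. The other 7 members lay at or below 0, and the median log2 ratio was −0.15 against −0.003 for all genes. Ptprm was lowest at −0.55 [−0.60, −0.49], from 1130 CPM in Cre plus and 1652 in Cre minus. The log2 ratio was −0.24 [−0.33, −0.15] for Magi1, −0.22 [−0.28, −0.16] for Pecam1, −0.16 [−0.21, −0.099] for Cdh5, −0.14 [−0.22, −0.067] for Esam and −0.13 [−0.23, −0.019] for Tjp1. F11r, at −0.026 [−0.14, 0.086], did not differ beyond counting error.

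The blood endothelial Cldn5 ratio kept its sign across Malat1 content, at 0.58 [0.48, 0.69] in Malat1-rich and 1.68 [1.23, 2.14] in Malat1-poor barcodes. Over 1.5-fold higher were 0 of 8 members among the former, where 9.03% of genes were, and 3 of 7 among the latter, where 10.0% were. In the Malat1-rich set Ptprm was over 1.5-fold lower, at −0.71 [−0.77, −0.65], where 9.69% of genes were. In the Malat1-poor set several other members turned from below to above 0: F11r to 1.06 [0.46, 1.66], Cdh5 to 0.67 [0.36, 0.97] and Esam to 0.55 [0.19, 0.90], with Tjp1 at 0.42 [−0.13, 0.96] and Pecam1 at 0.10 [−0.19, 0.39]. Only Ptprm, at −0.25 [−1.06, 0.51], and Magi1, on 3 and 16 UMIs, stayed below it there. The Cldn5 ratio fell to 0.45 without cycling barcodes, which is within 1.5-fold. In cycling BEC alone the gene stood at 709 and 318 CPM in Cre plus and Cre minus, and in the others at 547 and 400 CPM. At 2000 UMIs per barcode a Cldn5 UMI was found in 43.3% [35.7, 51.1] of Cre plus and 37.0% [30.3, 44.1] of Cre minus BEC barcodes, and these intervals overlap. In summed UMIs, other cell types' RNA also differed between the BEC of the libraries. The mural and fibroblast list (Pdgfrb, Pdgfra, Acta2, Cspg4 and Dcn) had 3 of 5 genes detected and a summed level of 176 CPM in Cre plus, against 2 of 5 and 3.89 CPM in Cre minus, with Pdgfra and Dcn at 0 in both. The red cell list had 3 of 3 genes in both, at 1230 and 63.9 CPM. In BEC of Cre plus the 198 UMIs of Col1a1 lay in 1 barcode and the 267 of Rgs5 in 6. Without barcodes holding a UMI of Rgs5, Col1a1, Col1a2 or Acta2 the Cldn5 log2 ratio was 0.73. That left 166 and 192 BEC barcodes in Cre plus and Cre minus. Without those over 1% haemoglobin UMIs it was 0.73, with 181 of 182 and all 206 BEC barcodes left. The pigment list had all 5 genes detected in each group, at 36.3 and 91.5 CPM in BEC and 41.0 and 95.7 CPM in LEC of Cre plus and Cre minus, and its part in the results was not tested.

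The genotype ratios in LEC minus those in BEC gave 0.81 [0.72, 0.90] for Ptprm, 0.65 [0.52, 0.78] for Magi1 and 0.48 [0.29, 0.66] for Tjp1, where the median of 9285 genes was 0.26. Among Malat1-rich barcodes the same differences were 0.032, −0.13 and −0.004, and the median of 8543 genes was −0.047. Among Malat1-poor barcodes they were 1.79 [0.94, 2.64], 2.91 [1.05, 4.77] and −0.11 [−0.72, 0.50], and the median of 3070 genes was 0.035. The Magi1 value there rests on 3 UMIs in BEC of Cre plus. Cldn5 went the other way, at −0.24 [−0.37, −0.12] over all barcodes, −0.74 [−0.88, −0.60] in Malat1-rich and −1.05 [−1.52, −0.58] in Malat1-poor barcodes. With 1 library per genotype none of these differences was tested.

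Malat1 content set the 2 members with the longest spans apart. In Malat1-rich over Malat1-poor barcodes the log2 ratio of Ptprm was 3.22 in LEC of Cre plus, 5.44 in LEC of Cre minus, 3.82 in BEC of Cre plus and 4.28 in BEC of Cre minus. That of Magi1 was 3.58, 5.60, 5.43 and 4.41 in the same order. For Tjp1, with a span of 231.6 kb, it was 1.23, 1.80, 0.971 and 1.65. Cldn5, with no intron, gave 1.10, 1.88, 0.512 and 1.61, Cdh5 0.563, 1.07, 1.07 and 2.03, and Pecam1, of 96.41 kb, 0.540, 0.781, 1.03 and 1.46. Below 300 kb the members thus showed no order by span. Ptprm and Magi1 thus stood far apart from the others in every group. Of the members with at least 50 UMIs, 6 of 8, 7 of 7, 7 of 8 and 8 of 8 were over 1.5-fold higher in Malat1-rich barcodes, where 59.5%, 54.4%, 52.7% and 55.1% of genes were. Over all genes the medians were 2.75, 3.77, 2.70 and 3.27 for spans over 300 kb, 1.36, 1.70, 1.18 and 1.49 from 30 to 300 kb, and 0.415, −0.048, 0.083 and −0.074 under 30 kb. The sources used here do not say whether reads in introns were counted, and their part in these ratios was not tested.

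**Figure D4:**
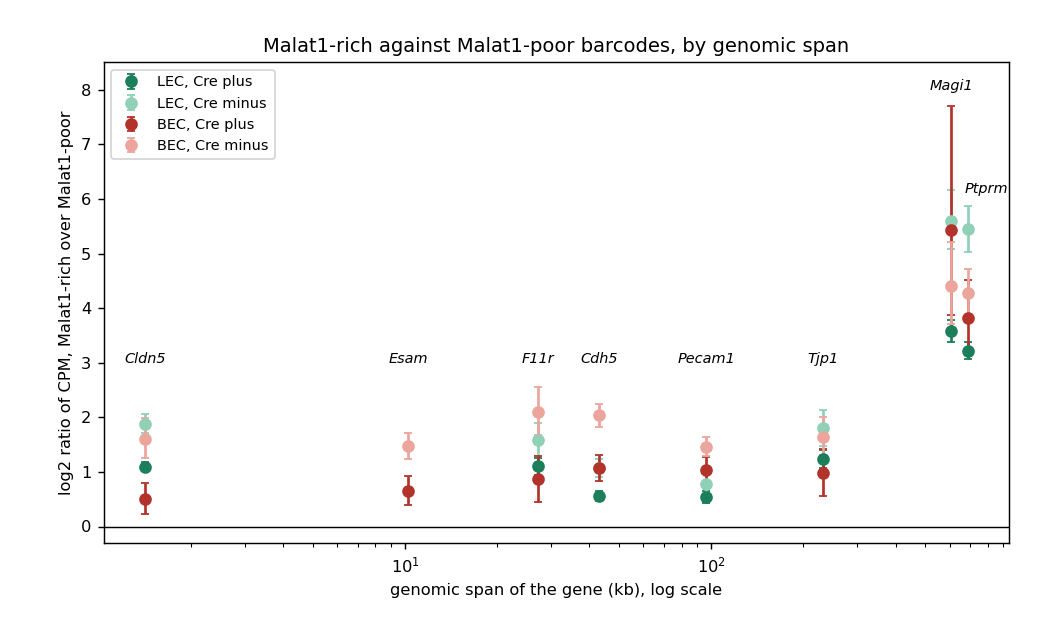
Log2 ratio of CPM in Malat1-rich over Malat1-poor barcodes (y axis) against the genomic span of each gene in kb (x axis, log scale), for LEC and BEC of each library with 95% counting intervals. Ptprm and Magi1, the 2 longest, lie between 3.22 and 5.60, while the shorter members lie between 0.512 and 2.10, and Ocln, and Esam in LEC, are left out for low counts.

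Barcodes called cycling held less Ptprm and Magi1 in BEC of both libraries. Barcodes with 3 or more UMIs over Mki67, Top2a, Cenpf, Birc5 and Ube2c were called cycling, 37 BEC barcodes in each library. Such an absolute count favours deep barcodes, and depth and Malat1 content were not matched between cycling and other barcodes. In cycling over other BEC the log2 ratio was −0.92 [−1.01, −0.83] and −1.08 [−1.18, −0.99] for Ptprm and −0.97 [−1.11, −0.83] and −1.32 [−1.50, −1.14] for Magi1 in Cre plus and Cre minus. In Cre plus these were the 2 of 8 members over 1.5-fold lower, where 19.0% of 8326 genes were, and in Cre minus 4 of 8 were, where 27.7% of 7294 genes were. The other 2 in Cre minus were Tjp1 at −0.65 and Pecam1 at −0.60. In LEC, 0 members passed 1.5-fold in either library, where 7.24% and 15.8% of genes were higher in cycling barcodes and 7.39% and 6.93% lower.

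Other junction genes were read from lists of partners, to be read against the shares over all genes in LEC (22.7% higher, 2.78% lower and a median log2 ratio of 0.27). Of the adherens junction list, with catenins and nectins, 11 of 12 had at least 50 UMIs in LEC and 0 passed 1.5-fold between the genotypes, with a median log2 ratio of 0.11. Ctnnb1 (β-catenin), which links VE-cadherin to α-catenin, was at 475 CPM in Cre plus and 616 in Cre minus, a ratio of −0.38 [−0.46, −0.29]. Vcl (vinculin) was at 0.41 [0.25, 0.58] and Nectin2 at 0.39 [0.24, 0.54]. Of the tight junction list 12 of 22 could be read, 4 were over 1.5-fold higher and 1 lower, with a median of 0.21. The 1 lower was Cgnl1 (paracingulin), at 57.3 and 104 CPM, a ratio of −0.85 [−1.08, −0.63]. Pard3, a polarity scaffold, was higher at 0.81 [0.56, 1.07], and Magi3, a relative of Magi1, was at 0.36 [0.20, 0.52]. The remaining higher ones were Jam3, at 391 and 28 UMIs, and Cldn12 and Marveld2, at 3 or fewer UMIs in Cre minus, named here after their values were seen.

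The connexin list gave 3 of 4 readable genes in LEC, with Gja1 (connexin 43) at 392 and 277 CPM, a log2 ratio of 0.50 [0.37, 0.63]. Gja4 (connexin 37) was the 1 over 1.5-fold higher, with 64 UMIs against 1. Of the Rap1 and actin regulators 14 of 15 could be read, 2 were over 1.5-fold higher and 0 lower, with a median of 0.34. Those were Pdcd10, a member of the cerebral cavernous malformation complex, at 0.65 [0.45, 0.86], and the small GTPase Rap1b at 0.64 [0.50, 0.78]. Rapgef2, an exchange factor for Rap1, was at 0.54 [0.34, 0.74]. None of the 5 other contact receptors passed 1.5-fold, and Cd47 was at 0.090 [0.010, 0.17]. Except for the regulators, at 0.12, the list medians among Malat1-rich LEC barcodes were below 0.

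In BEC the same lists gave 0 of 10 adherens, 2 of 9 tight junction, 1 of 4 gap junction, 0 of 14 regulator and 0 of 5 contact receptor genes over 1.5-fold higher in Cre plus, where 6.89% of all genes were. Over 1.5-fold lower were 0, 1, 1, 1 and 0, where 5.52% of all genes were. Jam2, Cldn15, Mpdz and Gja5 are named here after their values were seen. Higher were Jam2, a junctional adhesion molecule of blood endothelium, at 63.2 and 35.4 CPM, Cldn15 at 10.9 and 5.19 CPM and Gja4 at 87.3 and 42.2 CPM. Lower were Mpdz at 44.6 and 73.0 CPM, Gja5 (connexin 40) at 10.4 and 20.4 CPM and Rapgef2 at 198 and 297 CPM.

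The classes also differed in partner genes, given here as picked after their values were seen. Cxadr (the coxsackievirus and adenovirus receptor, a tight junction protein) stood at 85.4 and 110 CPM in LEC of Cre plus and Cre minus and at 4 and 2 UMIs in BEC. Pard3 stood at 126 and 71.8 CPM in LEC and at 27 and 3 UMIs in BEC. Jam2 had 3 and 0 UMIs in LEC against 279 and 109 in BEC. Mcam (CD146) stood at 27.5 and 21.9 CPM in LEC and at 509 and 588 CPM in BEC.

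**Figure D5:**
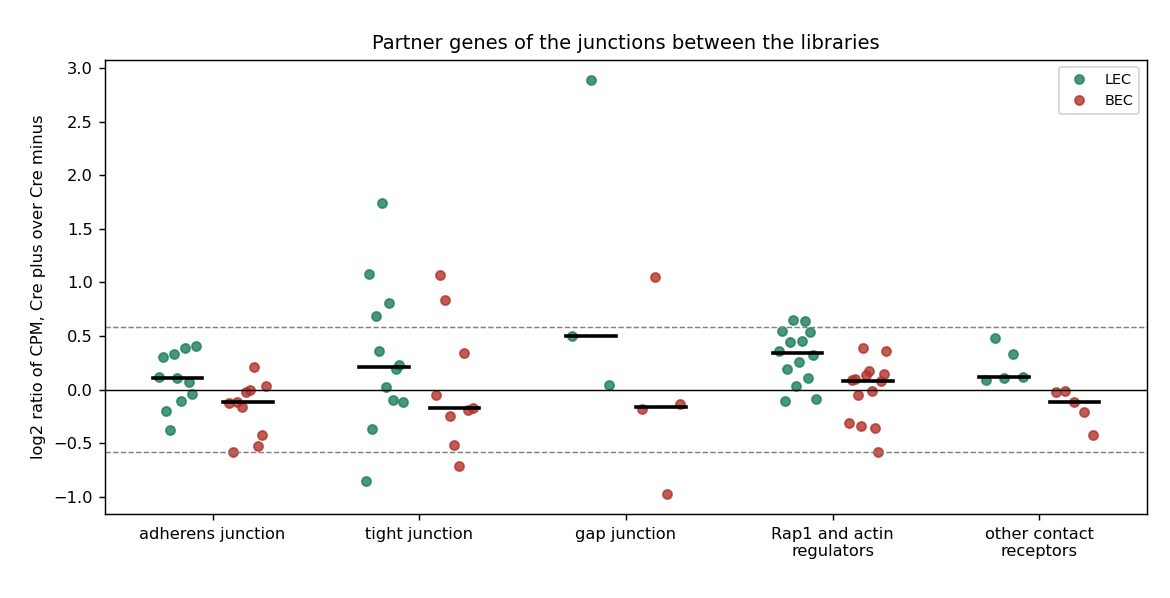
Log2 ratio of CPM, Cre plus over Cre minus, for partner genes with at least 50 UMIs in 5 lists (x axis), in LEC and BEC, where points are genes, black bars are list medians and dashed lines mark 1.5-fold. The LEC medians lie between 0.11 and 0.50 and the BEC medians between −0.17 and 0.083.

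Across the 5 gated classes (LEC, BEC, pigment, macrophage and mural) in 2 libraries, 10 groups in all, the genes most like each member were found by Pearson's r of log2(CPM + 1), as a description over groups that share libraries and depth. Cdh5 and Pecam1 were each other's nearest gene of 12762 (r = 0.996), with Gimap8 next for both. Cldn5 was nearest to Gimap5 (r = 0.997) and Gimap4, Esam to Peg3 (r = 0.985) and Rasal2, and F11r to Gimap9 (r = 0.981) and Tspan9. Tjp1 was nearest to Etl4 (r = 0.988) and Sh3glb2, Ptprm to Nos3 (r = 0.980) and Aplp2, and Magi1 to Enpp4 (r = 0.979) and Tmc6.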

How the data were processed

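Single-cell 3′ libraries (10x kit v3.1) were made from sorted cells of 1 pool of 3 tumors per genotype. The deposited matrices hold counts, raw UMIs per gene and barcode for 32285 genes, made with Cell Ranger 7.0.0 on mm10 per the submitters' processing notes; the annotation and the treatment of intronic reads are not given in the sources used here. The libraries held 2491 barcodes with 66704257 UMIs (Cre plus) and 2502 with 76967583 (Cre minus).

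Barcodes with at least 500 genes, under 10% mitochondrial and at most 50% haemoglobin UMIs passed, 1777 and 1549. A class score was the mean over 3 genes of ln(1 + UMIs per 10000). LEC needed a score at least 0.5 above the BEC score, a UMI of at least 2 of the 3 genes and a score above the pigment, macrophage and mural scores, and BEC likewise. No doublet caller was run, and mixed barcodes stayed in. Summed UMIs of a class in a library were divided by their total and multiplied by 1000000 (CPM). Log2 ratios have exact conditional binomial 95% intervals, shares exact Clopper-Pearson intervals, and a count of 0 a floor of 3 counts. The difference of 2 log2 ratios has an interval from the summed Poisson variances. A gene was called past 1.5-fold if it had at least 50 UMIs. With 1 library per group no test was made, and barcodes were not treated as replicates. The ratio and its interval were tested on simulated data. Promoter windows are RefSeq's (GRCm38.p6), and positions GENCODE M21's, matched by identifier for 99.8% of genes.

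Named genes were the 9 members, up to 3 genes per partner list with the LEC interval bound farthest from 0, the 2 genes most like each member by Pearson's r among genes with at least 200 UMIs, class markers and Ifngr1. The members and lists were chosen with earlier results of these data known. The alternatives covered the filters, the gate, Leiden clusters, scaling, depth, Malat1 content, cycling and the UMI minimum, and 3 more were added after seeing the data. Work was done with numpy 2.4.6, scipy 1.17.1, pandas 2.3.3, scikit-learn 1.9.0, igraph 0.11.9, leidenalg 0.10.2 and matplotlib 3.10.9.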

Additional observations from a re-analysis of the deposited data

Results flagged for a closer look

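Between the endothelial classes, 4 of 8 members had ratios of Cre plus over Cre minus above 0 in LEC and below 0 in BEC, with intervals off 0 on both sides, as did 7 of 38 partner genes and 7.94% of 9265 genes with at least 50 UMIs in both. The opposite held for 0 members, 2 partner genes and 3.46% of genes. The LEC minus BEC difference of log2 ratios was 1.8 for Esam, which rests on 3 UMIs in LEC of Cre minus, 0.48 for Tjp1, 0.81 for Ptprm and 0.65 for Magi1. Of the partners named by rule it was 0.68 for Gja1, 0.88 for Magi3 and 1.13 for Rapgef2. The difference was not tested, and all genes had a median difference of 0.26. An interval lies off 0 more readily where a gene has more UMIs, and these shares were not matched for UMIs. Among Malat1-rich barcodes Tjp1, Ptprm and Magi1 lay below 0 in LEC (−0.26, −0.68 and −0.53) and in BEC (−0.25, −0.71 and −0.40). Among Malat1-poor ones they stood at 0.31, 1.54 and 1.49 in LEC. In BEC they stood there at 0.42, −0.25 and −1.42, with intervals that span 0.

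Members were also found in classes outside the comparisons, above the limit that a count of 0 allows and above 10% of the LEC level. Esam in mural barcodes stood at 125.0 and 151.0 CPM in Cre plus and Cre minus, and Tjp1 there at 68.6 and 87.0 CPM. In pigment barcodes F11r stood at 39.6 and 44.1 CPM, Tjp1 at 50.7 and 48.6 CPM, Ptprm at 195.0 and 205.0 CPM and Magi1 at 243.0 and 204.0 CPM, while Cdh5 stood at 2.72 and 1.60 CPM. In macrophage barcodes Pecam1 stood at 117.0 and 47.0 CPM, F11r at 42.9 and 27.2 CPM, Ptprm at 153.0 and 248.0 CPM and Magi1 at 89.7 and 126.0 CPM. The macrophage values rest on few barcodes. In Cre minus all 223 Magi1 UMIs lay in 1 of 46 barcodes, and 357 of 437 Ptprm UMIs lay in 1. In Cre plus the 5 richest of 41 barcodes held 251 of 271 Ptprm, 152 of 159 Magi1 and 157 of 207 Pecam1 UMIs. Cdh5 and Cldn5 were present there too, with 168 and 219 UMIs in Cre plus, of which the 5 richest barcodes held 162 and 207. In Cre minus their 47 and 89 UMIs lay in 5 and 3 barcodes. Whether these were mixed barcodes was not tested.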

How the results depend on the processing

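No paired analysis was possible because there was 1 library per genotype, and no test could be lost or gained. The 5 medians over the members were recomputed under 20 alternatives, which gave 100 values, and 72 stayed within the median counting interval of the members. The medians as reported were 0.34 (LEC) and −0.15 (BEC) for Cre plus over Cre minus, −0.45 (Cre plus) and −0.94 (Cre minus) for LEC over BEC, and 0.36 for LEC minus BEC genotype ratios. A gate without Ccl21a gave a LEC median of 0.097, a LEC over BEC median of −0.65 in Cre minus and a difference of 0.13, and ratios relative to the median of all genes gave 0.071 in LEC, −0.57 and −0.75 for LEC over BEC, and 0.085 for the difference. The mean over barcodes gave 0.60 in LEC, −0.002 in BEC and −0.78 and −1.39 for LEC over BEC. Thinning to 2000 UMIs gave 0.014 in BEC and −0.88 and −1.26 for LEC over BEC. Malat1-rich barcodes gave −0.27 in LEC, −0.29 in BEC, −0.35 and −0.33 for LEC over BEC and −0.045 for the difference, and Malat1-poor ones 0.55 in BEC, −0.58 (Cre minus) for LEC over BEC and −0.37 for the difference. Other shifts were −0.23 in BEC with a gate margin of 1, −0.34 for LEC over BEC in Cre plus with no guard, −0.78 for LEC over BEC in Cre minus on scaling without abundant genes, −0.53 and −1.23 for LEC over BEC without cycling barcodes, and −1.19 (Cre minus) without the 5 deepest barcodes of each class, an alternative added after seeing the data. The cause of these shifts was not tested.

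Of member ratios past 1.5-fold as reported, 3 changed sign, all for LEC over BEC in Cre minus: Ptprm at 0.036 in Malat1-rich and Cdh5 at 0.057 and F11r at 0.28 in Malat1-poor barcodes. Ratios within 1.5-fold turned more often: Magi1 for LEC over BEC in Cre minus under 8 of 19 alternatives (−0.93 to 0.97), Ptprm in Cre plus under 4 of 20, Cdh5 in LEC and F11r in BEC between the genotypes under 7 of 20 each, and Pecam1 in LEC under 6. Cldn5 between the genotypes kept its sign in BEC under all 20, from 0.45 to 1.68, and in LEC under 19, from −0.16 to 1.0. The 1 member over 1.5-fold higher in LEC (22.7% of genes) became 4 with the mean over barcodes (44.5%), 3 after thinning (34.6%), in Malat1-poor barcodes (18.8%) or without cycling ones (28.1%), 2 without the 5 deepest barcodes (31.1%) and 0 with a minimum of 200 UMIs (18%). The 6 lower in LEC than BEC in Cre minus (28.2%) became 4 with no Ccl21a in the gate (20.8%) and 3 in the Malat1-rich (14.6%) and Malat1-poor (21.8%) sets, and the 3 in Cre plus (13.7%) became 6 after thinning (20.2%) and 5 with the mean over barcodes (21.1%). The 1 higher in LEC than BEC in Cre minus (14.3%) became 2 in Malat1-rich barcodes (20.5%). It became 0 after thinning (22.5%) or with the mean over barcodes (14.9%). The 1 higher between the genotypes in BEC (6.89%) became 3 in Malat1-poor barcodes (10.0%) and 0 in Malat1-rich ones (9.03%) or without cycling ones (10.1%). Depth limits Esam in LEC of Cre minus, at 3 UMIs, and Ocln throughout.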

Other observations

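Outside the endothelium, Esam was found with the mural and fibroblast genes. Mural barcodes held it at 125 CPM in Cre plus, in 20 of 30 barcodes, and at 151 CPM in Cre minus, in 12 of 19 barcodes, while Cdh5 had 0 UMIs in both groups. Barcodes with a UMI of Rgs5, a pericyte gene, carried 167 of the 169 Esam UMIs in Cre plus and all 80 in Cre minus. Rgs5 is a gene of the mural gate, and 23 of the 30 and 17 of the 19 mural barcodes had a UMI of it. The barcodes with no UMI of the 6 blood endothelial check markers (Kdr, Sox17, Aplnr, Esm1, Vwf and Cd34) held Esam at 116 CPM (24 barcodes) and 214 CPM (15 barcodes). Split instead by the gate genes Flt1, Plvap and Emcn, mural barcodes with a UMI of these carried 168 of the 169 Esam UMIs in Cre plus (134 CPM against 10.1 CPM in the 4 others) and 73 of 80 in Cre minus (178 against 59.1 CPM in the 5 others). The part of mixed barcodes was not tested. The mural level was 25.3 times that of LEC in Cre plus and 96.9 times in Cre minus, where the LEC level rests on 3 UMIs, and the mural groups are small.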
